A study of Mus musculus with 12 samples.

Results

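The genes described here are 10 nuclear genes whose proteins fuse mitochondria, divide them or fold their inner membrane into cristae. Opa1, Mfn1 and Mfn2 act in fusion. Dnm1l, Fis1 and Mff act in fission. Immt, Chchd3 and Apool encode subunits of MICOS, the complex that holds the necks of the cristae, and Samm50 encodes its contact in the outer membrane. They were chosen by gene symbol, with earlier results of these data known, and they are 10 of the 48709 gene rows counted in each library. Each symbol matched 1 Ensembl mouse gene, and 10 of 10 passed the filter on low counts that left 14408 genes.

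Mitochondria form a network that is remodelled by opposing membrane reactions. The mitofusins MFN1 and MFN2 are GTPases that tether and join outer membranes, and the GTPase OPA1 joins inner membranes and narrows cristae junctions. The cytosolic GTPase DRP1, the product of Dnm1l, is brought to the outer membrane by adaptors such as MFF and constricts the organelle. Cardiolipin, the phospholipid that the enzyme tafazzin remodels, lies mainly in the inner membrane where OPA1, MICOS and ATP synthase dimers work, and fibroblasts are widely used to watch the shape of this network.

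The RNA came from cultured embryonic fibroblasts (MEFs) of C57BL/6 mice. WT cells and cells labelled TAZKo were each kept in normoxia or for 24 hours in the low oxygen of a hypoxia workstation, which gives 4 groups of 3 samples. The study asked how cells without tafazzin respond to low oxygen next to isogenic WT cells. All 4 groups share the strain, the medium with serum, the RNA extraction and the library kit. The labels used here do not give the oxygen level, how the TAZKo cells were made, what their allele removes, or whether a genotype is 1 line or several, and nothing says that the 3 samples of a group were separate cultures. The p-values therefore measure the spread between these samples, which may be technical.

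The libraries held 21039451 to 31204510 counts. Taz, the gene of tafazzin, was not lower in the libraries labelled TAZKo: it had 38.0, 33.3 and 32.7 CPM (the gene's count relative to the scaled library total) in WT normoxia samples 1 to 3 and 45.8, 39.8 and 41.0 CPM in TAZKo normoxia, a log2 difference of 0.29 (adjusted p = 0.0139), and in hypoxia the difference was 0.43 (adjusted p = 0.00112). The count covers the whole gene, so it does not check an allele that keeps a transcript, and the groups are called by their labels throughout. Fibroblast markers summed to 10376 to 13259 CPM, with 8 of 10 above 1 CPM in all 12 samples. The other 2, Thy1 and Lum, reached at most 0.291 and 0.0724 CPM, and Col1a2 had 1.51 to 5.93 CPM. Single markers differed between genotypes in opposite directions (in normoxia Col1a1 had 2556 to 3296 CPM in WT against 1137 to 1163 in TAZKo, and Pdgfrb 45.0 to 53.5 against 98.1 to 111). Adgre1 of macrophages, Myod1 of muscle and Pou5f1 and Zfp42 of pluripotent cells were at 0, while Nanog had 0.875 to 2.43 CPM. Muscle markers summed to 0.0442 to 0.627 CPM. The epithelial sum, Krt14 almost alone (1 of 5 markers above 1 CPM in all samples), was 219 to 279 CPM in WT normoxia against 98.5 to 107 CPM in TAZKo normoxia, and 198 to 207 against 130 to 137 CPM in hypoxia. The endothelial sum, mostly Tek (also 1 of 5), was 18.2 to 21.2 against 5.85 to 7.88 CPM and 14.6 to 20.6 against 4.28 to 5.50 CPM, while Pecam1 was lower in WT normoxia (0.109 to 0.354 against 0.505 to 0.618 CPM). The nerve sum, mostly Tubb3 (1 of 4), was 33.4 to 40.2 against 22.5 to 28.1 CPM in normoxia and 44.5 to 61.4 against 35.0 to 37.4 CPM in hypoxia. The blood sum, nearly all Cd68 (1 of 5), went with hypoxia from 2.93 to 3.36 CPM to 6.70 to 7.97 CPM in WT and from 3.47 to 4.33 CPM to 5.98 to 7.44 CPM in TAZKo. The part of these markers in the results was not tested. WT normoxia sample 1 stood apart on the third principal component (35.7, against -13.4 to 10.5 in the other 11). Its deviation from its group mean fell with exonic length across 12330 genes (Spearman's rho = -0.32, across genes and not replicates). The other samples numbered 1 had rho = -0.20, -0.15 and -0.16, and the 8 remaining samples 0.00 to 0.31.

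The 10 genes lie on 8 chromosomes in GRCm38 by the GENCODE M21 annotation, each a protein-coding gene. Opa1 is at chr16:29579334-29654884, Mfn1 at chr3:32529465-32579239, Mfn2 at chr4:147873599-147904704 and Dnm1l at chr16:16312230-16358959. Fis1 is at chr5:136953275-136966234 and Mff at chr1:82724890-82752394. Immt, at chr6:71831331-71877388, and Chchd3, at chr6:32790976-33060260, share a chromosome. Apool is at chrX:112311334-112372755 and Samm50 at chr15:84192241-84217267. Between 0.0% and 2.94% of the 50-base words of a gene's transcript also occurred in another annotated gene, with the highest shares for Dnm1l (2.94%, with Gm13719) and Immt (2.16%, with Gm19617). Opposite-strand genes overlap 4.7% of the exonic bases of Dnm1l, 2.0% of those of Mff and 1.6% of those of Immt, and a same-strand gene overlaps 1.7% of those of Samm50. Reads in these stretches cannot be told apart here, and whether the authors counted by strand is not given in the sources used.

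Promoter sequence is shown for the 5 genes that changed with hypoxia in WT cells and for Mfn2, the paralog that did not pass the test, so that the letters can be read beside the values. Each is the 250 bases before the RefSeq start (GRCm38.p6), 5′ to 3′ on the gene's own strand, and 10 of 10 genes had such a window. Capitals mark CCAAT or its reverse ATTGG, a box common in promoters, and ACGTG or GCGTG or their reverses CACGT and CACGC, the core letters of sites that HIF can bind. The windows are chr3:32529232-32529481 (plus strand), chr4:147904699-147904948 (minus strand), chr1:82724640-82724889 (plus strand), chr6:71831070-71831319 (plus strand), chr6:33060261-33060510 (minus strand) and chr15:84191990-84192239 (plus strand), in this order.
Mfn1: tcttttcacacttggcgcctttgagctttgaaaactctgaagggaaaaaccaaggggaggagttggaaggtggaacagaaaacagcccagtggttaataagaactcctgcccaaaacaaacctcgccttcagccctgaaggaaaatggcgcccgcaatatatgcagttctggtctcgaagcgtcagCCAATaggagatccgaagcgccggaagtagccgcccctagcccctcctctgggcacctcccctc
Mfn2: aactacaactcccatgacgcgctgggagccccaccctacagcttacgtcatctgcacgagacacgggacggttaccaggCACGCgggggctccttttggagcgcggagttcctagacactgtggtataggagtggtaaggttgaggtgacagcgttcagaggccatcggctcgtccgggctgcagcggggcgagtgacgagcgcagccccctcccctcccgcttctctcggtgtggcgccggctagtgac
Mff: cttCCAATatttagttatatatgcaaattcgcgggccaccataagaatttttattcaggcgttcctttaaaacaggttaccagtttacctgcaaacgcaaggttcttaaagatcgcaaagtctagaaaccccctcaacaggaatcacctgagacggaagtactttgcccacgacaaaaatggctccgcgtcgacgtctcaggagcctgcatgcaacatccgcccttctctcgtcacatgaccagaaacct
Immt: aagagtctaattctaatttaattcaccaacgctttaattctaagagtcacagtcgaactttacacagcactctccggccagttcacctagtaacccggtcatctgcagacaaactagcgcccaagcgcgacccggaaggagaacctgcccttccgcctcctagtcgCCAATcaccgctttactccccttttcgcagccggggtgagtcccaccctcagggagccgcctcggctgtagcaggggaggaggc
Chchd3: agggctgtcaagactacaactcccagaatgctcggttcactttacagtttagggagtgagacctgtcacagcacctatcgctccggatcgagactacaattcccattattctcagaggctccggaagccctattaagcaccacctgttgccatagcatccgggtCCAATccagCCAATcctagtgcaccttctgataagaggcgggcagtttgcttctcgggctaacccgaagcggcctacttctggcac
Samm50: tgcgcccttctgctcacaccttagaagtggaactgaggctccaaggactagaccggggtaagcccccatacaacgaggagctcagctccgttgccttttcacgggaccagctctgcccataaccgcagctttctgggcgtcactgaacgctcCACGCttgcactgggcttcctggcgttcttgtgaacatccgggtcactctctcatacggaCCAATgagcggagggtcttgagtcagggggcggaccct

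On either strand, 9 of the 10 windows held CCAAT, against 33.8% of the 32851 promoter windows of the same length, and Mfn2 was the window without it. The GC box GGGCGG was in 7 of 10 windows, against 32.7% of all. ACGTG was in 0 of 10 windows (16.6% of all) and GCGTG in 2 of 10 (28.2% of all), at position -98 from the start of Samm50 and -171 from that of Mfn2. Opa1 held GCGCATGC, the letters of an NRF-1 site, in 2 overlapping matches, and this word was in 2.3% of all windows. AAGGTCA was in 0 of 10 windows and 4.1% of all. A match is a description of letters, and no binding was measured here.

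Per kilobase of exonic length, the mean level over the 12 samples was highest for Fis1, the small outer membrane adaptor, at 113 CPM per kb (102 to 150). Immt, the core MICOS subunit, followed at 81.0 (68.7 to 96.4), and the ranges of these 2 genes did not overlap. Mff was next at 48.3, then Chchd3 at 34.7, Dnm1l at 33.3 and Samm50 at 32.7 CPM per kb. Mff (35.6 to 56.7), Chchd3 (27.2 to 41.6), Dnm1l (23.1 to 37.5) and Samm50 (25.6 to 40.3) overlapped, so their order is within the spread of samples. Mfn2 (26.8 CPM per kb) and Opa1 (25.0) were close, and Mfn1 (17.4, range 14.2 to 21.0) lay below both. Apool, a lipid-binding MICOS subunit, was lowest at 11.8 (8.94 to 14.3). With the longest coding transcript as the length, Chchd3 and Mff changed places and the other 8 kept their rank. The range of the 4 group means on the log2 CPM scale was widest for Chchd3 (0.49), Mff (0.48) and Mfn1 (0.47), and narrowest for Mfn2 and Dnm1l (0.18 each) and Opa1 (0.19).

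**Figure D1:**
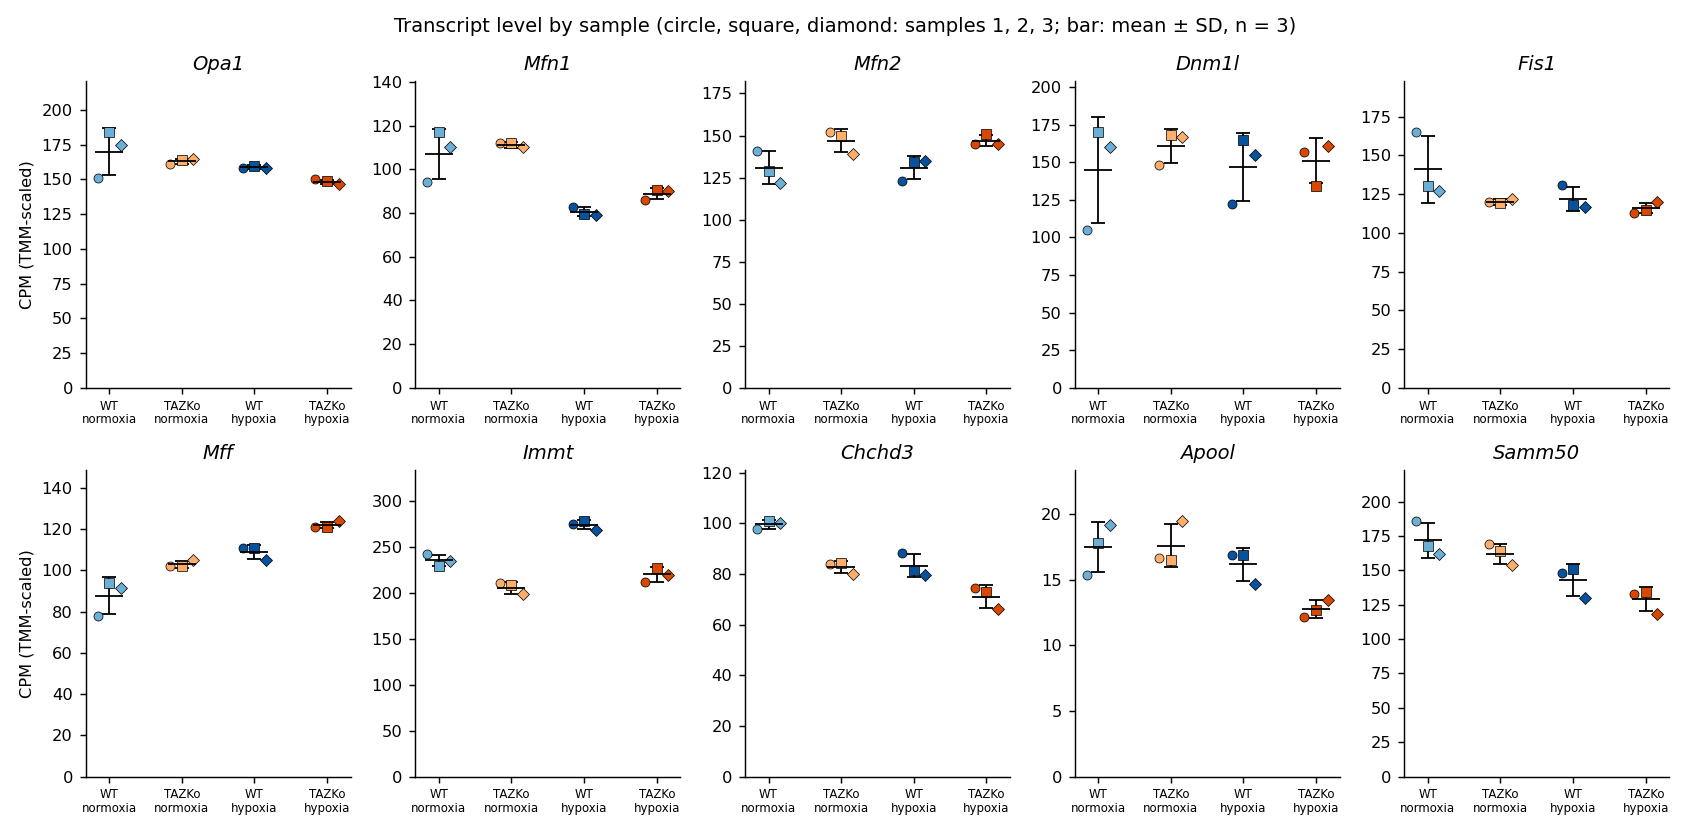
Level of each gene in CPM (TMM-scaled, linear axis from 0) in the 12 samples, with 1 panel per gene, 1 symbol per sample number and bars for the mean ± SD of 3 samples. Mfn1 and Samm50 sit lower and Mff higher after hypoxia in both genotypes, Immt and Chchd3 sit lower in TAZKo than in WT, and WT normoxia sample 1 (circle) stands off for Dnm1l and Fis1.

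In normoxia, 3 of the 10 genes differed between the libraries labelled TAZKo and the WT libraries: Immt and Chchd3 were lower and Mff was higher. That is 1 gene higher, where 15.6% of all genes tested were, and 2 lower, where 14.9% were, or 30.4% of all genes called in either direction. With the replicate number as a block, taken to pair these samples, 5 of 10 were called, beside 36.2% of all genes. The block added Mfn2 (0.17, adjusted p = 0.0494) and Fis1 (-0.22, adjusted p = 0.0408). In hypoxia 3 genes differed, the MICOS subunits Immt, Chchd3 and Apool, all 3 lower (16.9% of all genes were lower, 15.8% higher and 32.8% called). The MICOS subunits outside the 10 genes were not lower there. Micos13 was higher (0.21, adjusted p = 0.0459), and Apoo (0.20), Micos10 (0.03) and Chchd6 (0.02) did not pass the test. The samples of the groups did not overlap for 4 of 10 genes in normoxia (42.8% of all genes) and 7 of 10 in hypoxia (50.0%). The shares of called genes are near those of all genes, and the median absolute log2 difference was 0.16 in both conditions, against 0.20 and 0.21 over all genes.

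After 24 hours of hypoxia, 5 of the 10 genes changed in WT cells: Mff and Immt rose (26.0% of all genes did), and Mfn1, Chchd3 and Samm50 fell (25.0% did), against 51.0% of all genes called. With the replicate block, also taken to pair these samples, Fis1 (-0.20, adjusted p = 0.0440) was added, where 55.7% of all genes were called. In cells labelled TAZKo 5 genes also changed: Mff rose (22.2% of all genes), and Mfn1, Chchd3, Apool and Samm50 fell (21.6%), against 43.8% called. Samples did not overlap for 5 of 10 genes in WT (54.6% of all genes) and 7 of 10 in TAZKo (61.1%). The median absolute log2 change was 0.21 in WT and 0.18 in TAZKo, against 0.31 and 0.26 over all genes. Without the block, Opa1, Mfn2, Dnm1l and Fis1 passed the test in none of the 4 comparisons. Each comparison of genotype shares a group of samples with each comparison of hypoxia, so their values are set side by side and not related to each other. These are bulk libraries, in which fewer cells of a type and less RNA per cell cannot be told apart.

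**Figure D2:**
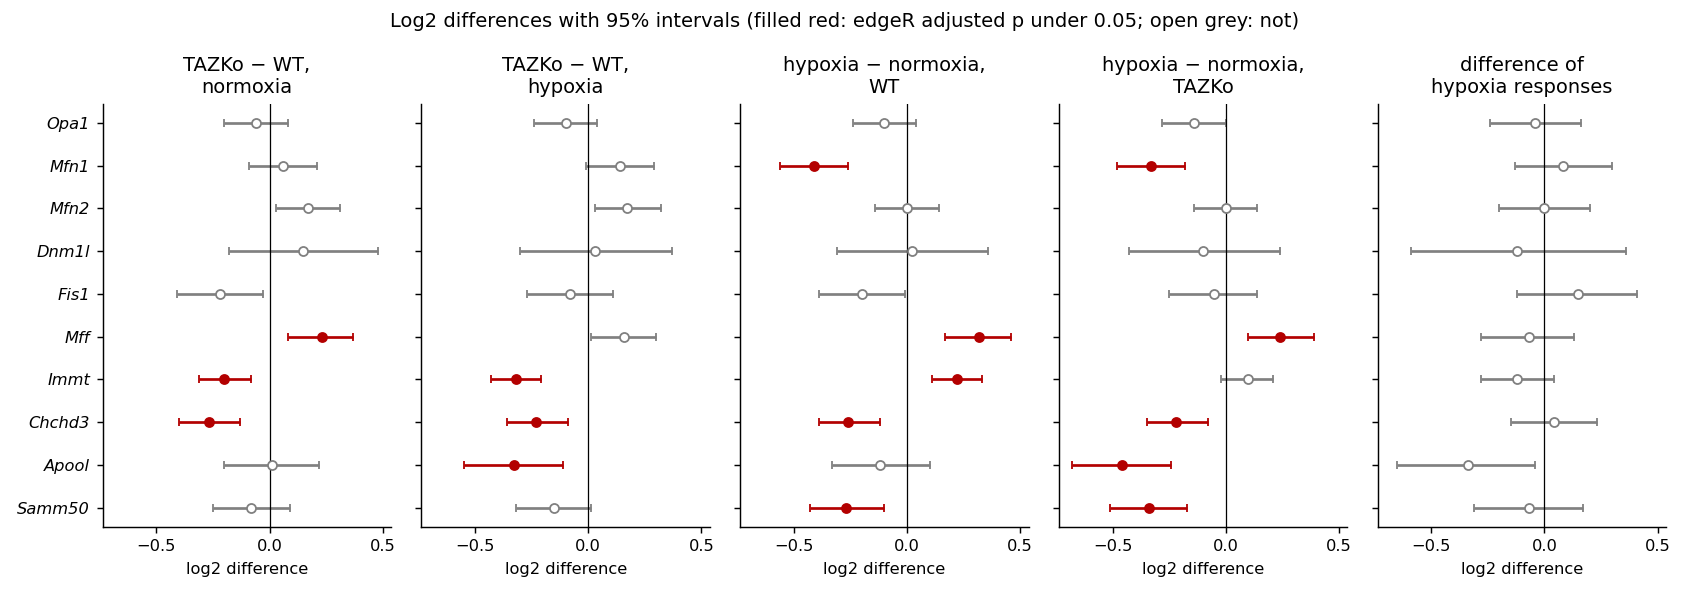
Log2 difference of each gene in the 5 comparisons, with 95% intervals from the fit over 12 samples; filled red points have an adjusted p under 0.05 and open grey points do not. Mfn1 and Mff are filled in both hypoxia panels, Immt and Chchd3 in both genotype panels, and the panel for the difference of the hypoxia responses has no filled point.

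Of the fusion genes, Mfn1 fell with hypoxia in both genotypes. In normoxia it had 94.4, 117 and 110 CPM in WT samples 1 to 3 (107 ± 11.4, SD, n = 3) and 112, 112 and 110 CPM in TAZKo (111 ± 1.35). In hypoxia it had 82.9, 79.6 and 79.2 CPM in WT (80.6 ± 2.05) and 85.9, 90.5 and 89.9 CPM in TAZKo (88.8 ± 2.52). The 6 hypoxic samples lay below the 6 normoxic ones, with WT normoxia sample 1 the nearest to them. The log2 change was -0.41 (SE 0.0704, adjusted p = 2.77e-04, 0.753-fold) in WT and -0.33 (SE 0.0700, adjusted p = 0.00191, 0.798-fold) in TAZKo. Mfn1 did not pass the test between genotypes, where its log2 difference was 0.06 in normoxia (95% interval -0.09 to 0.21) and 0.14 in hypoxia (-0.01 to 0.29).

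Mfn2, which also tethers mitochondria to the endoplasmic reticulum, did not follow its paralog in hypoxia. It had 141, 129 and 122 CPM in WT normoxia (131 ± 9.86) and 123, 134 and 135 CPM in WT hypoxia (131 ± 6.64). In TAZKo it had 152, 150 and 139 CPM in normoxia (147 ± 6.68) and 145, 151 and 145 CPM in hypoxia (147 ± 3.51). The normoxic and hypoxic samples overlapped in both genotypes, and the log2 change was 0.00 in each, with intervals of -0.14 to 0.14. Its difference between genotypes was 0.17 in normoxia (95% interval 0.03 to 0.31, adjusted p = 0.0655) and 0.17 in hypoxia (0.03 to 0.32, adjusted p = 0.0594), and in hypoxia the 3 TAZKo samples were above the 3 WT samples. The normoxia difference was 0.09 (adjusted p = 0.382) without WT normoxia sample 3 and 0.23 (adjusted p = 0.00693) without WT normoxia sample 1. Genes on its chromosome 4 had a median log2 difference of 0.13 in both conditions, and those on chromosome 3, where Mfn1 lies, of 0.13 and 0.04; the part of these shifts in the values was not tested.

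Opa1, the inner membrane GTPase, had 151, 184 and 175 CPM in WT normoxia (170 ± 16.8) and 161, 164 and 165 CPM in TAZKo normoxia (163 ± 1.93). In hypoxia it had 158, 160 and 158 CPM in WT (159 ± 1.39) and 150, 149 and 147 CPM in TAZKo (148 ± 1.44). The 3 TAZKo hypoxia samples were below the TAZKo normoxia samples and below the WT hypoxia samples, while the WT groups overlapped through sample 1. The log2 change with hypoxia was -0.14 in TAZKo (95% interval -0.28 to 0.00, adjusted p = 0.0990) and -0.10 in WT (-0.24 to 0.04), neither past the threshold. Both passed it with upper quartile scaling (-0.17, adjusted p = 0.0397, and -0.16, adjusted p = 0.0384) and with library size alone (-0.23, adjusted p = 0.00657, and -0.21, adjusted p = 0.0116).

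**Figure D3:**
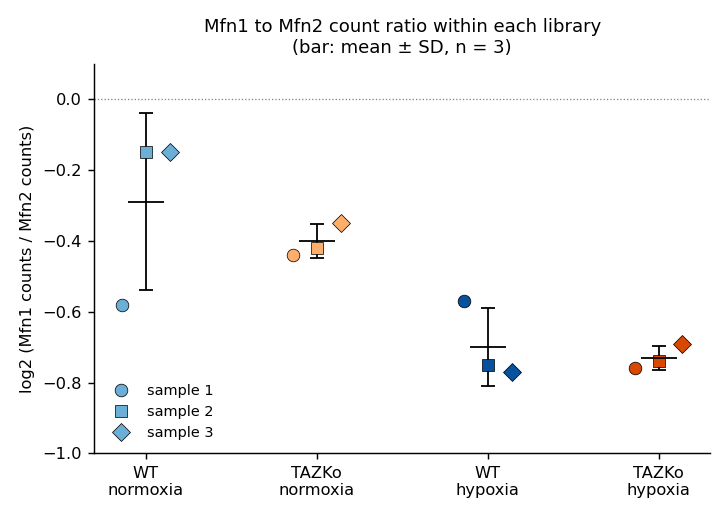
Log2 ratio of Mfn1 to Mfn2 counts within each library (1 symbol per sample number, bar for the mean ± SD of 3 samples, dotted line at equal counts). The 3 TAZKo hypoxia points lie between -0.76 and -0.69, below the 3 TAZKo normoxia points, and WT normoxia sample 1 lies at -0.58, beside WT hypoxia sample 1 at -0.57.

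The ratio of Mfn1 to Mfn2 counts within a library needs no scaling between libraries, and it was compared between groups. Its log2 was -0.58, -0.15 and -0.15 in WT normoxia (-0.29 ± 0.25, n = 3) and -0.57, -0.75 and -0.77 in WT hypoxia (-0.70 ± 0.111). It was -0.44, -0.42 and -0.35 in TAZKo normoxia (-0.40 ± 0.0488) and -0.76, -0.74 and -0.69 in TAZKo hypoxia (-0.73 ± 0.0341). The TAZKo conditions did not overlap, and the WT conditions overlapped through sample 1 of each. The difference with hypoxia was -0.33 in TAZKo (two-sided exact permutation p = 0.1, adjusted over 4 comparisons 0.4) and -0.40 in WT (exact p = 0.2, adjusted 0.4). Between genotypes it was -0.11 in normoxia (exact p = 0.4) and -0.04 in hypoxia (exact p = 0.9). With 3 samples against 3 the smallest p is 0.1, so no comparison of this ratio could pass 0.05. Without WT normoxia sample 1 the difference with hypoxia in WT was -0.55, and that between genotypes in normoxia -0.25.

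Of the fission genes, Mff, an outer membrane receptor of DRP1, rose with hypoxia in both genotypes. It had 77.7, 94.1 and 91.5 CPM in WT normoxia (87.8 ± 8.79) and 111, 111 and 105 CPM in WT hypoxia (109 ± 3.43). In TAZKo it had 102, 102 and 105 CPM in normoxia (103 ± 1.68) and 121, 121 and 124 CPM in hypoxia (122 ± 1.65). In each genotype the hypoxic samples lay above the normoxic ones, and in each condition the TAZKo samples lay above the highest WT sample. The log2 change with hypoxia was 0.32 in WT (SE 0.0679, adjusted p = 0.00156, 1.24-fold) and 0.24 in TAZKo (SE 0.0675, adjusted p = 0.00997, 1.18-fold). The TAZKo call was lost with library size alone as the scaling (0.15, adjusted p = 0.0746) and without TAZKo hypoxia sample 3 (0.20, adjusted p = 0.0652), TAZKo normoxia sample 1 (0.20, 0.0621) or sample 2 (0.21, 0.0621).

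Between genotypes Mff was higher in the normoxic libraries labelled TAZKo by a log2 difference of 0.23 (SE 0.0678, adjusted p = 0.0205, 1.17-fold). In hypoxia the difference was 0.16 (95% interval 0.01 to 0.30, adjusted p = 0.0935). The normoxia call was lost in a fit of the 6 samples alone (0.23, adjusted p = 0.0858), with no filter (0.20, 0.0885), and without any 1 of the 6 TAZKo samples or WT hypoxia sample 2 or 3 (0.18 to 0.20, adjusted p = 0.0550 to 0.128).

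Dnm1l, the gene of the fission GTPase, was the most variable of the 10 within a group. It had 105, 170 and 160 CPM in WT normoxia (145 ± 35.3), 148, 168 and 167 CPM in TAZKo normoxia (161 ± 11.2), 122, 165 and 155 CPM in WT hypoxia (147 ± 22.6) and 157, 134 and 161 CPM in TAZKo hypoxia (151 ± 14.8). Sample 1 was the low one in 3 of the 4 groups and sample 2 in TAZKo hypoxia, and the groups overlapped in the 4 comparisons. Its log2 differences were 0.15 and 0.03 between genotypes in normoxia and hypoxia, and 0.02 and -0.10 with hypoxia in WT and TAZKo. The intervals reached from -0.18 to 0.48 and from -0.30 to 0.37 for the first pair, and from -0.31 to 0.36 and from -0.43 to 0.24 for the second. Changes of the size seen for Mfn1 or Mff in WT lie inside or at the edge of several of these intervals.

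Fis1, a tail-anchored outer membrane protein, had 165, 130 and 127 CPM in WT normoxia (141 ± 21.4) and 120, 119 and 122 CPM in TAZKo normoxia (120 ± 1.73). In hypoxia it had 131, 118 and 117 CPM in WT (122 ± 7.92) and 113, 115 and 120 CPM in TAZKo (116 ± 3.39). WT normoxia sample 1 was the high one, and the 3 TAZKo normoxia samples lay below the 3 WT normoxia samples. The log2 difference between genotypes was -0.22 in normoxia (95% interval -0.41 to -0.03, adjusted p = 0.0703) and -0.08 in hypoxia (-0.27 to 0.11). The change with hypoxia was -0.20 in WT (-0.39 to -0.01, adjusted p = 0.0737) and -0.05 in TAZKo (-0.25 to 0.14). Without WT normoxia sample 1 these were -0.09 (adjusted p = 0.232) between genotypes in normoxia and -0.07 (adjusted p = 0.319) with hypoxia in WT. Without WT normoxia sample 3 both were -0.33 (adjusted p = 0.0145 and 0.00813). The genotype difference in normoxia gained a call in 3 of 10 other settings and 5 of 12 fits with a sample left out. The change with hypoxia in WT gained a call in 5 of 10 and 9 of 12. The latter include every fit without a TAZKo sample, which this comparison does not hold (-0.26, adjusted p = 0.0322 to 0.0352). With WT normoxia sample 1 as the reference of the scaling and all samples kept, the change was -0.25 (adjusted p = 0.0253). The fits share most of their samples, so these counts are not separate support.

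Of the cristae genes, Immt, which encodes the MICOS subunit that bends and holds cristae junctions, was lower in the libraries labelled TAZKo in both conditions. It had 242, 229 and 234 CPM in WT normoxia (235 ± 6.28) and 211, 208 and 198 CPM in TAZKo normoxia (205 ± 6.71). In hypoxia it had 275, 278 and 268 CPM in WT (274 ± 4.72) and 212, 227 and 219 CPM in TAZKo (220 ± 7.95). The 6 TAZKo samples lay below the 6 WT samples. The log2 difference was -0.20 in normoxia (SE 0.0520, adjusted p = 0.0113, 0.873-fold) and -0.32 in hypoxia (SE 0.0520, adjusted p = 3.94e-04, 0.802-fold), and neither call was lost under an alternative that was run.

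With hypoxia Immt rose in WT by 0.22 (SE 0.0520, adjusted p = 0.00308, 1.16-fold), and its change in TAZKo was 0.10 (95% interval -0.02 to 0.21, adjusted p = 0.153). The hypoxic samples lay above the normoxic ones in both genotypes. The WT call was lost with library size alone (0.11, adjusted p = 0.0918), with no filter (0.14, 0.190), in the 6 samples alone (0.17, 0.0677), and without WT hypoxia sample 2 (0.15, 0.0544) or WT normoxia sample 2 (0.15, 0.0583). The difference between the responses, -0.12 (95% interval -0.28 to 0.04, adjusted p = 0.460), did not pass the test.

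Chchd3, which encodes the MICOS subunit MIC19, was lower in TAZKo libraries and fell with hypoxia, so that WT normoxia was the highest and TAZKo hypoxia the lowest group. It had 97.6, 101 and 100 CPM in WT normoxia (99.6 ± 1.82) and 83.9, 84.5 and 80.0 CPM in TAZKo normoxia (82.8 ± 2.43). In hypoxia it had 88.5, 81.7 and 79.7 CPM in WT (83.3 ± 4.66) and 74.4, 73 and 66.1 CPM in TAZKo (71.1 ± 4.45). No groups overlapped except TAZKo normoxia and WT hypoxia. The log2 difference between genotypes was -0.27 in normoxia (SE 0.0625, adjusted p = 0.00527, 0.831-fold) and -0.23 in hypoxia (SE 0.0629, adjusted p = 0.0133, 0.854-fold). The change with hypoxia was -0.26 in WT (SE 0.0626, adjusted p = 0.00340) and -0.22 in TAZKo (SE 0.0627, adjusted p = 0.0118). The genotype call in hypoxia was lost with no filter (-0.21, adjusted p = 0.0742) and without TAZKo hypoxia sample 3 (-0.18, adjusted p = 0.0568), while the other 3 calls of Chchd3 were lost under none of the alternatives run. Genes on chromosome 6, where Immt and Chchd3 lie, had a median difference between genotypes of -0.05 in normoxia and -0.07 in hypoxia.

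Apool, which encodes the cardiolipin-binding MICOS subunit MIC27, fell with hypoxia in TAZKo and was lower in TAZKo than in WT after hypoxia. It had the fewest reads of the 10, from 250 to 630 counts per library. It had 15.4, 17.8 and 19.2 CPM in WT normoxia (17.5 ± 1.90), 16.7, 16.5 and 19.5 CPM in TAZKo normoxia (17.6 ± 1.65), 16.9, 16.9 and 14.7 CPM in WT hypoxia (16.2 ± 1.26) and 12.2, 12.7 and 13.5 CPM in TAZKo hypoxia (12.8 ± 0.690). The 3 TAZKo hypoxia samples lay below the other 9, which overlapped. The change with hypoxia was -0.46 in TAZKo (SE 0.101, adjusted p = 0.00218, 0.727-fold) and -0.12 in WT (95% interval -0.33 to 0.10). The difference between genotypes in hypoxia was -0.33 (SE 0.102, adjusted p = 0.0226, 0.794-fold), and in normoxia it was 0.01 (95% interval -0.20 to 0.22). The hypoxia difference lost its call without TAZKo hypoxia sample 1 (-0.31, adjusted p = 0.0748) or 2 (-0.33, 0.0614) and without WT hypoxia sample 1 (-0.31, 0.0580) or 2 (-0.30, 0.0724).

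Samm50, the barrel-assembly protein of the outer membrane that touches MICOS, fell with hypoxia in both genotypes. It had 186, 168 and 162 CPM in WT normoxia (172 ± 12.8) and 148, 151 and 130 CPM in WT hypoxia (143 ± 11.7). In TAZKo it had 169, 164 and 154 CPM in normoxia (162 ± 7.54) and 133, 134 and 118 CPM in hypoxia (129 ± 8.73). The hypoxic samples lay below the normoxic ones in each genotype, and the genotypes overlapped in each condition. The log2 change was -0.27 in WT (SE 0.0781, adjusted p = 0.0115, 0.832-fold) and -0.34 in TAZKo (SE 0.0781, adjusted p = 0.00315, 0.791-fold). Between genotypes Samm50 differed by -0.08 in normoxia (95% interval -0.25 to 0.09) and -0.15 in hypoxia (-0.32 to 0.01).

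Whether hypoxia acted differently in the genotypes was tested as an interaction, and 0 of the 10 genes passed the edgeR test, where 2.43% of all genes did (0.722% higher, 1.71% lower). At an unadjusted p under 0.05 there was 1, Apool (log2 -0.34, SE 0.142, adjusted p = 0.258), and DESeq2 also called 0 of 10. Changes that passed in 1 genotype and not in the other, such as those of Apool and Immt, were thus not shown to differ between genotypes. The next largest differences were 0.15 for Fis1 (95% interval -0.12 to 0.41) and -0.12 for Immt and Dnm1l, the last with the widest interval (-0.59 to 0.36). The median absolute difference was 0.08 over the 10 genes and 0.16 over all genes.

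The WT normoxia sample that stood apart bears on the counts between genotypes. Without it, 5 of 10 genes were called in normoxia and 6 of 10 in hypoxia, beside 33.8% and 41.9% of all genes. In normoxia Opa1 (-0.13, adjusted p = 0.0318) and Mfn2 (0.23, adjusted p = 0.00693) were added, and in hypoxia Mfn1 (0.14, adjusted p = 0.0241), Mfn2 (0.17, adjusted p = 0.0151) and Mff (0.16, adjusted p = 0.00951), while the 3 calls made with all samples stayed in each condition. With hypoxia Opa1 was added in WT (-0.18, adjusted p = 0.00383) and in TAZKo (-0.14, adjusted p = 0.00889). That gave 6 of 10 in each genotype, beside 52.3% of all genes in each. The comparison of genotypes in hypoxia holds no sample of that group, and the fit shares 1 estimate of the spread among the 4 groups. Lanes, taken from the names of the deposited tables, were lane 4 for samples 1 and lane 5 for samples 3, with samples 2 in lane 4 in normoxia and lane 5 in hypoxia. Within a lane a group has 1 or 2 samples, too few for a test. Differences of mean log2 CPM had the direction of the fit within both lanes for 16 of the 16 calls. The calls were made on these same samples, so this agreement is a description and not separate support. Mfn1 with hypoxia differed by -0.34 in lane 4 and -0.47 in lane 5 in WT, and by -0.38 and -0.28 in TAZKo. Immt differed between genotypes by -0.17 and -0.24 in normoxia and -0.38 and -0.29 in hypoxia, and Apool in hypoxia by -0.48 and -0.27. With lane as a term in the fit the counts were 3, 3, 5, 5 and 0 of 10, as without it.

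**Figure D4:**
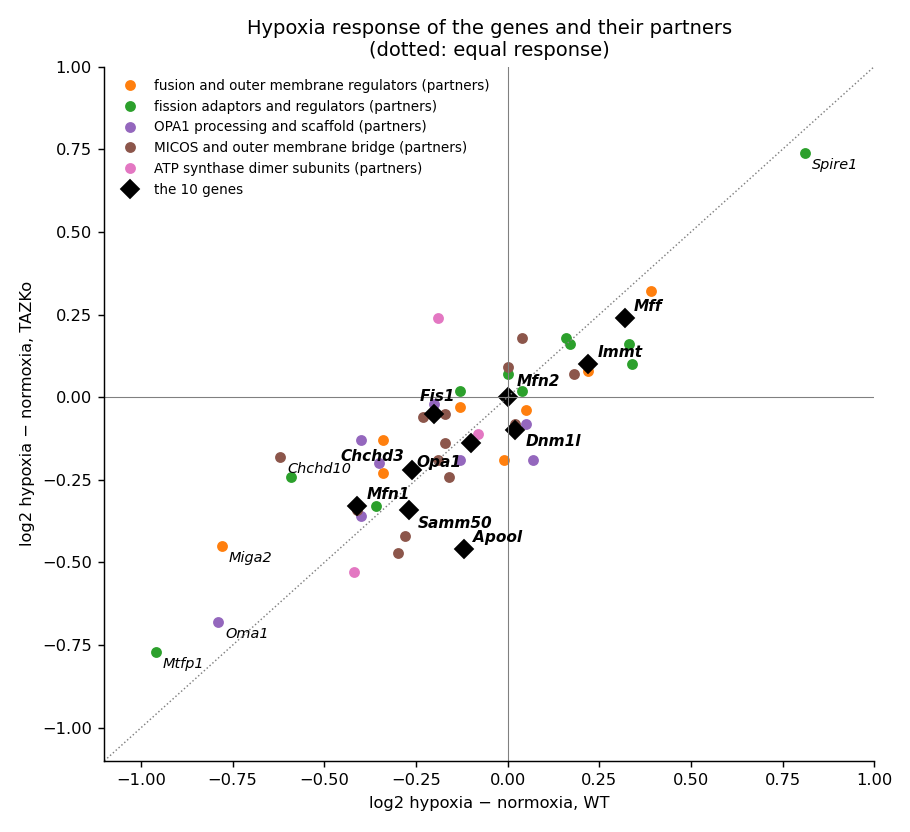
Log2 change with hypoxia in WT (x axis) against TAZKo (y axis) for the 10 genes (black diamonds) and 43 partner genes (coloured by list); the dotted line marks equal change. Mff lies at the upper right and Mfn1, Samm50 and Chchd3 at the lower left, and among partners Spire1 lies at 0.81 and 0.74 and Mtfp1, Oma1 and Miga2 at the far lower left.

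The wider machinery was read from 5 lists of 44 partner genes, of which 43 were tested and Gdap1 was not. Between genotypes 8 of 43 were called in normoxia (2 higher, 6 lower) and 10 of 43 in hypoxia (4 higher, 6 lower), beside the 30.4% and 32.8% of all genes. Of all genes, 15.6% were higher and 14.9% lower in normoxia, and 15.8% and 16.9% in hypoxia. With hypoxia 17 of 43 changed in WT (3 rose, 14 fell) and 15 of 43 in TAZKo (3 rose, 12 fell), beside 51.0% and 43.8%. Of all genes, 26.0% rose and 25.0% fell in WT, and 22.2% rose and 21.6% fell in TAZKo. The median log2 change with hypoxia was -0.16 in WT and -0.11 in TAZKo, against 0.01 and -0.01 over all genes. In the interaction 0 of 43 were called (3 at an unadjusted p under 0.05).

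Of the 8 regulators of fusion and the outer membrane, 2 fell with hypoxia in WT and 1 in TAZKo, where 25.0% and 21.6% of all genes fell. Miga2, which encodes a mitoguardin that promotes fusion, went from 87.5, 67.8 and 70.5 CPM to 46.3, 41.0 and 43.9 CPM in WT (log2 -0.78, adjusted p = 9.21e-06). In TAZKo it went from 79.2, 70.3 and 74.5 CPM to 54.8, 56.4 and 52.6 CPM (-0.45, adjusted p = 0.00113), with no overlap in either genotype. Mul1, an outer membrane ubiquitin ligase, fell in WT (-0.34, adjusted p = 0.00346). In the hypoxic TAZKo libraries Miga2 (0.32, adjusted p = 0.0156) and Mul1 (0.26, adjusted p = 0.0283) were higher than in WT. Miga1 was higher in TAZKo in both conditions (0.94 and 0.77, adjusted p = 0.0123 and 0.0391), at levels of 0.728 to 2.47 CPM.

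Of the 11 tested adaptors and regulators of fission, 6 changed with hypoxia in WT (3 in each direction) and 5 in TAZKo (2 rose, 3 fell), beside 51.0% and 43.8% of all genes. By direction, 26.0% of all genes rose and 25.0% fell in WT, and 22.2% and 21.6% in TAZKo. Spire1, an actin nucleator with a mitochondrial isoform, rose from 41.2, 47.9 and 44.8 CPM to 70.2, 82.4 and 81.1 CPM in WT (0.81, adjusted p = 1.47e-06) and from 35.8, 39.1 and 35.8 CPM to 62.7, 63.1 and 59.2 CPM in TAZKo (0.74, adjusted p = 5.10e-06). Inf2, the formin that builds actin where the endoplasmic reticulum meets mitochondria, fell from 264, 218 and 217 CPM to 171, 146 and 149 CPM in WT (-0.59, adjusted p = 5.87e-05) and by less in TAZKo (-0.24, adjusted p = 0.0295), a difference not called in the interaction. Spire1 and Inf2 thus moved in opposite directions in both genotypes. Between genotypes Spire1 was lower in TAZKo in both conditions (-0.27 and -0.34), Inf2 was lower in normoxia (-0.24, adjusted p = 0.0447) and Mtfr2 was higher there (0.36, adjusted p = 0.00901) on chromosome 10, whose median difference was 0.31; the part of this shift was not tested. Mief2, a DRP1 receptor, fell with hypoxia in both (-0.36 and -0.33), as did Mtfp1 (-0.96 and -0.77) at 1.84 to 4.33 CPM.

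Of the 8 genes of OPA1 processing and its scaffold, 4 fell with hypoxia in each genotype and 0 rose, where 25.0% of all genes fell in WT and 21.6% in TAZKo. Oma1, the stress-activated protease that cleaves OPA1, went from 15.4, 15.4 and 15.1 CPM to 8.10, 9.06 and 9.24 CPM in WT (-0.79, adjusted p = 1.58e-06) and from 15.9, 15.9 and 15.6 CPM to 9.33, 10.0 and 10.1 CPM in TAZKo (-0.68, adjusted p = 7.91e-06). Stoml2, a scaffold protein that binds prohibitins and cardiolipin, fell in both (-0.40 and -0.36), as did Afg3l2 (-0.35 and -0.20). Phb fell in WT (-0.40, adjusted p = 0.00180) and Parl in TAZKo (-0.19, adjusted p = 0.0269).

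Between genotypes the m-AAA protease pair stood lower in TAZKo in both conditions. Spg7 had 136, 118 and 119 CPM in WT normoxia and 101, 95.7 and 96.1 CPM in TAZKo normoxia (-0.35, adjusted p = 0.00130), and 134, 126 and 125 against 96.3, 92.8 and 87.3 CPM in hypoxia (-0.48, adjusted p = 1.05e-04). Afg3l2, its partner subunit, differed by -0.47 (adjusted p = 7.86e-05) and -0.31 (adjusted p = 0.00177). Genes on chromosome 8, where Spg7 lies, had median differences of -0.16 and -0.15, and those on chromosome 18, where Afg3l2 and Spire1 lie, of -0.22 and -0.28; the part of these chromosome-wide shifts was not tested. Phb2 was lower in normoxia (-0.27, adjusted p = 0.0262).

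Of the 13 other genes of MICOS and the outer membrane bridge, 4 fell with hypoxia in WT (25.0% of all genes did), and 3 fell and 1 rose in TAZKo (21.6% and 22.2% of all genes did). Mtx2, which encodes a metaxin that works beside SAMM50, fell in both genotypes (-0.30, adjusted p = 0.00357, and -0.47, adjusted p = 1.71e-04), and so did Chchd6, the gene of the MICOS subunit MIC25 (-0.41, adjusted p = 8.96e-04, and -0.34, adjusted p = 0.00338). In hypoxia Mtx2 had 63.4, 62.7 and 59.4 CPM in WT and 50.5, 46.5 and 46.7 CPM in TAZKo, a difference of -0.37 (adjusted p = 0.00161). Micos13 was higher there (0.21, adjusted p = 0.0459), and Mtx3 fell with hypoxia in TAZKo (-0.42, adjusted p = 0.0184). Chchd10, a relative of MICOS subunits, was lower in TAZKo in both conditions (-1.66, adjusted p = 2.35e-04, and -1.22, adjusted p = 0.00412), at 0.650 to 3.41 CPM, on chromosome 10 whose median differences were 0.31 and 0.29, and it fell with hypoxia in WT (-0.62, adjusted p = 0.0369) with samples that overlapped. Of the 3 ATP synthase dimer subunits, Atp5me fell with hypoxia in both genotypes (-0.42 and -0.53) and Atp5md was lower in TAZKo in hypoxia (-0.28, adjusted p = 0.0412) on chromosome 19, whose median difference was -0.28.

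The genes most like the 3 members of widest range were found by Pearson's correlation of log2 CPM over the 12 samples, among 9428 genes with a mean of at least 10 CPM. The samples fall into 4 groups, so r describes the pattern of group levels and carries no test. Nearest to Chchd3 were Dnajb11 (r = 0.982), Ahcy (0.981) and Hsd17b4 (0.971). Nearest to Mff were Rnf13 (0.987), Ccnl2 (0.978) and Tlk1 (0.976), and nearest to Mfn1 were Mmachc (0.986), Srbd1 (0.980) and Mettl14 (0.973).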

How the data were processed

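RNA sequencing libraries were made with the Illumina TruSeq RNA v2 kit, per the labels' protocols, and the authors deposited whole-number read counts per Ensembl gene, 1 table per sample. The build was mm10 per the submitters' processing notes; the aligner, counting program, annotation release and strand setting are not given in the sources used here. Of 48709 IDs, 48349 were matched by ID to GENCODE M21. Members, partner lists and marker lists were chosen with earlier results of these data known.

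Genes were filtered with filterByExpr (14408 left), scaled with TMM (a trimmed mean of log ratios), and tested with the quasi-likelihood method of edgeR (edgeR 4.0.16, limma 3.58.1, R 4.3.3) over the 12 samples, with 1 coefficient per group. Benjamini-Hochberg adjustment ran over all genes tested, and a gene was called at an adjusted p under 0.05. Adjusted p-values are from this test unless another is named. CPM values are TMM-scaled, with mean ± SD over 3 samples; intervals are 95%. The Mfn1 to Mfn2 ratio was compared by two-sided exact permutation (scipy 1.17.1). The 10 members are all named. A partner is named if it was called in any comparison and was among the 4 of its list with the largest absolute log2 difference there. The script was tested on simulated data.

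Alternatives were 3 other scalings (size factors of DESeq2, upper quartile, library size alone), the Wald test of DESeq2 1.42.0, 2 other filters (none, or a mean CPM of 5), a replicate block, a lane term, fits of only the compared samples, and fits with each sample left out. A TMM reference of WT normoxia sample 1 was added after seeing the data. The pairing comes from the replicate numbers in the titles, whose meaning no label gives. Deviations of same-numbered samples correlated with r = 0.35, 0.15 and 0.23 between genotypes in normoxia and 0.37, 0.20 and 0.15 between conditions in WT, so the numbers were taken to pair those samples. In the other 2 comparisons r was -0.02 to 0.12, and they were not. Both comparisons taken as paired hold WT normoxia, whose sample 1 stood apart, and the numbers go partly with lane. What these correlations reflect was not tested, and the block was fitted over all 12 samples.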

Additional observations from a re-analysis of the deposited data

How the results depend on the processing

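Of the 16 calls among the 10 genes, 11 were lost in no alternative and 0 reversed; of the 34 results not called, 12 changed sign and 10 gained a call in some alternative. With the replicate block 5 genes were called between genotypes in normoxia and 5 in hypoxia, beside 36.2% and 38.3% of all genes. In hypoxia it added Mfn2 and Samm50, in a comparison that was not taken as paired. Hypoxic samples of the same number also share a lane there. Between conditions it added Fis1 in WT and changed no other call. In the 6 samples alone 6 were called between genotypes in hypoxia, beside 39.3% of all genes. Leaving out 1 sample gave counts of 2 to 5 and 2 to 6 between genotypes in normoxia and hypoxia, 4 to 6 with hypoxia in each genotype, and 0 in the interaction. The shares of all genes called then ran from 22.8% to 33.8% and from 25.6% to 41.9% between genotypes. With hypoxia they ran from 44.4% to 52.3% in WT and from 36.5% to 52.3% in TAZKo. The interaction count over all genes, 350, ran from 174 without TAZKo normoxia sample 2 to 727 with no filter. With library size alone the all-gene median shifted by -0.106 with hypoxia in WT and -0.0946 in TAZKo, where 38.1% and 36.0% of calls were then higher. With WT normoxia sample 1 as the TMM reference, the all-gene median between genotypes in normoxia shifted by -0.0332. It shifted by 0.00242 without that sample, and by -0.0358 to -0.0324 without any other sample. Which sample each of these fits took as the TMM reference was not recorded.

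The cause of the sign changes was not tested. Apool between genotypes in normoxia was -0.01 with DESeq2 size factors and upper quartile scaling, 0.00 with DESeq2, and -0.02 with no filter or the added reference. Mfn2 with hypoxia in WT was -0.01 with DESeq2 size factors, -0.06 with upper quartile scaling, -0.11 with library size, -0.02 with DESeq2, -0.08 with no filter, and -0.05 with the added reference or 6 samples. Dnm1l there was -0.04 with upper quartile scaling, -0.08 with library size, -0.06 with no filter, and -0.03 with lane, the added reference or 6 samples. Mfn2 with hypoxia in TAZKo was -0.02 with upper quartile scaling or no filter, -0.09 with library size and -0.03 with the added reference. Opa1 in the interaction was 0.01 with no filter. With 1 sample left out, Apool ran from -0.11 to 0.05, Mfn1 from -0.02 to 0.09 and Dnm1l from -0.04 to 0.25 between genotypes in normoxia, and Dnm1l from -0.10 to 0.11 in hypoxia. With hypoxia, Mfn2 ran from -0.11 to 0.06 and Dnm1l from -0.17 to 0.10 in WT, and Mfn2 from -0.06 to 0.00 in TAZKo. In the interaction, Opa1 ran from -0.07 to 0.04, Mfn2 from -0.06 to 0.08, Dnm1l from -0.22 to 0.07, Mff from -0.10 to 0.01 and Samm50 from -0.13 to 0.01. The Mfn1 to Mfn2 ratio between genotypes in hypoxia was 0.03 without WT hypoxia sample 1 and -0.07 to -0.02 without another sample, and its paired values equalled the unpaired ones (smallest exact sign-flip p 0.25).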
